A study of Mus musculus with 24 samples.

Results

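The 10 phospholipase C (PLC) genes described here are Plcg1, Plcg2, Plcb1, Plcb2, Plcb3, Plcb4, Plcd1, Plcl1, Plcl2 and Plce1, chosen by name from the 24421 genes that the count tables list. They include both genes that the study deleted, Plcg1 and Plcg2, and 8 untargeted relatives whose levels bear on whether other PLC genes were raised when the PLCγ genes were lost. RNA-seq was done on 24 libraries from 12 mice. Each mouse was a lethally irradiated congenic CD45.1+ wild-type recipient of CD45.2+ donor bone marrow and gave 1 library of common lymphoid progenitors (CLPs, sorted as CD45.2+Lin-IL-7R+) and 1 library of B cell progenitors (sorted as CD45.2+B220+IgM-IL-7R+). The donor marrow was Plcg1+/+Plcg2+/+ (called wild-type), Plcg1-/-Plcg2+/+, Plcg1+/+Plcg2-/- or Plcg1-/-Plcg2-/-, with 3 mice per genotype. The Plcg1-/- genotype was made by Mx promoter-driven Cre, which poly(I-C) induces, acting on floxed Plcg1 alleles, and a Rosa-YFP reporter marked cells in which Cre had acted. The Plcg2-/- allele is a germline deletion. Donors of all 4 genotypes carried MxCre and the reporter, and all groups had poly(I-C) treatment and transplantation in common. The gates stated for the RNA sorts name CD45.2 and not YFP, and the number of donors behind the 3 recipients of a genotype is not given in the sources used here, so that p-values cover the spread between recipients.

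PLC enzymes cut the membrane lipid phosphatidylinositol bisphosphate into inositol trisphosphate (IP3), which releases calcium from intracellular stores, and diacylglycerol (DAG), which activates protein kinase C and RasGRP proteins. The family is divided by how its members are switched on. The γ enzymes are activated by tyrosine kinases, and PLCγ2 acts downstream of the B cell receptor. For the pre-B cell receptor, the study proposes that both γ enzymes might act redundantly. The β enzymes answer to Gq proteins and Gβγ, PLCδ1 responds to calcium, PLCε binds Ras family proteins, and the PLC-like proteins Plcl1 and Plcl2 keep the fold but lack catalytic activity.

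Positions are on GRCm38 by the GENCODE annotation. Plcg1 was at chr2:160731300-160775760 and Plcg2 at chr8:117498291-117635142. Plcb1 (chr2:134786067-135475258) and Plcb4 (chr2:135659011-136014593) lay on the same strand, 183752 bp apart, and Plcb2 was at chr2:118707517-118728438. Plcb3 and Plce1 were on chromosome 19, Plcd1 on chromosome 9, Plcl1 on chromosome 1 and Plcl2 on chromosome 17. Plcg1 shared 4.82% of its exon bases with Zhx3 on the opposite strand, and the library kit named by the study does not mark strand, so reads there cannot be told apart.

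The promoters of both targeted genes and of Plcb2, the untargeted member with the highest level in the double-deficient groups, are shown from 250 bases before to 50 after the RefSeq start on GRCm38.p6, with matches to GGGCGG (a GC box) and GAGGAA (a core of the kind that the myeloid and lymphoid factor PU.1 binds) in capitals on either strand. The windows are chr2:160731060-160731359 (plus strand), chr8:117498025-117498324 (plus strand) and chr2:118728389-118728688 (minus strand).
Plcg1: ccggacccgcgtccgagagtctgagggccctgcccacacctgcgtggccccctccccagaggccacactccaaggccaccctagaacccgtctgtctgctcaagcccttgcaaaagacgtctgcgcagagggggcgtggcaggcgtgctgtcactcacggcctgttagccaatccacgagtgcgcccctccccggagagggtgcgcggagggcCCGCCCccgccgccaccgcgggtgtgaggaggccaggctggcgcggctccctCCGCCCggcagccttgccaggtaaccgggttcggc
Plcg2: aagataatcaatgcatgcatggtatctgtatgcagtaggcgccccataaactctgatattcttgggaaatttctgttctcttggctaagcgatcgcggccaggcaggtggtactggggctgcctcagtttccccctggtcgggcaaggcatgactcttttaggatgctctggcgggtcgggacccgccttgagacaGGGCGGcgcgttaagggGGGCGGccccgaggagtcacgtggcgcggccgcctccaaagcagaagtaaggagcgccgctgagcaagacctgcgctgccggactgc
Plcb2: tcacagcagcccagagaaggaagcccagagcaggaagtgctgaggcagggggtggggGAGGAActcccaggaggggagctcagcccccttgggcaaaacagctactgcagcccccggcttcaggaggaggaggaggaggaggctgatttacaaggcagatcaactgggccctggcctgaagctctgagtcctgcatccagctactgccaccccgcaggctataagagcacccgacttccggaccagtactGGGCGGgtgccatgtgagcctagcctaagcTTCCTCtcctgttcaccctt
The Plcg1 window was 72% GC with 27 CpG sites and the Plcg2 window 60% GC with 21, each with 2 GC boxes and no GAGGAA. The Plcb2 window had 5 CpG sites, 1 GC box and 2 GAGGAA matches. Over the 32851 promoter windows of the table the medians were 52.7% GC and 7 CpG sites. GGGCGG stood in 35.7% of them and GAGGAA in 28.3%. TATAAA, which 13.6% held, was in none of the 11 windows found for 9 of the 10 genes. These matches describe letters and do not show binding.

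Reads on genes ranged from 4232345 to 33219995 in the CLP libraries and from 1479582 to 25057223 in the B cell progenitor libraries. Reads that the counts list as no feature made up 17.9% to 45.2% of the reads in CLPs and 59.9% to 87.3% in B cell progenitors. Reads listed as ambiguous made up 1.06% to 1.44% in CLPs and 0.11% to 0.42% in B cell progenitors. Neither share overlapped between the populations. The strand setting of the counting is not given in the sources used here. No feature reads are therefore not known to lie outside exons. The CLP libraries were uneven in Flt3, which encodes a receptor of early lymphoid progenitors. Flt3 lay at 196 to 735 CPM (read counts scaled to a common library total with TMM factors) in 4 of them, which were wild-type replicate 1 and replicate 2 of each other genotype. In the other 8 it lay between 25.8 and 115 CPM, against 28.4 to 111 CPM in the B cell progenitors. The calls of PLC genes and the main double-deficient values that rest on the CLP libraries are therefore also given without the 4 libraries highest in Flt3, and the pathway genes are given with all CLP libraries only. All 12 libraries labelled Plcg1-/- had high Xist (1294 to 2314 CPM) and low Ddx3y (1.44 to 19.1 CPM), and the 12 labelled Plcg1+/+ had Xist between 23.6 and 743 CPM and Ddx3y between 98.2 and 191 CPM, so that the Plcg1 genotype and the sex-linked genes cannot be told apart.

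Plcg2 was the most abundant of the 10 genes per length of exon in wild-type cells of both populations. Its level was 54.3 ± 10.3 CPM per kb of exon (SD, n = 3) in CLPs and 54.3 ± 4.5 CPM per kb in B cell progenitors. In wild-type CLPs it was followed by Plcb2 at 19.95 ± 8.64, Plcl2 at 19.3 ± 3.7, Plcg1 at 13.6 ± 0.7 and Plcb3 at 5.4 ± 1.0 CPM per kb. The ranges of Plcb2 and Plcl2 overlapped, and those of Plcg2 and Plcg1 stood clear of their neighbours. In wild-type B cell progenitors Plcl2 came next at 22.1 ± 3.8 CPM per kb, then Plcb2 at 12.6 ± 1.9 and Plcg1 at 11.8 ± 2.0, which overlapped each other, and Plcb3 at 4.0 ± 0.87. The other 5 genes were low. Plcb4 was at 1.85 CPM per kb in wild-type CLPs and 0.713 in wild-type B cell progenitors, Plcl1 and Plcb1 lay between 0.575 and 0.908 CPM per kb in both, and Plce1 and Plcd1 were at 0.159 or less. Genes next to each other in this order overlapped, except Plcb1 and Plce1 in B cell progenitors. Plcd1 had 0 to 38 reads in a library and Plce1 2 to 108. With the longest transcript as the length in place of all exons, Plcg2 stayed highest, at 54.3 CPM per kb in both populations, while Plcl2 moved ahead of Plcb2 in CLPs (28.8 against 25.6 CPM per kb) and Plcg1 ahead of Plcb2 in B cell progenitors (18.2 against 16.2 CPM per kb), and the ranges overlapped in both cases.

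**Figure D1:**
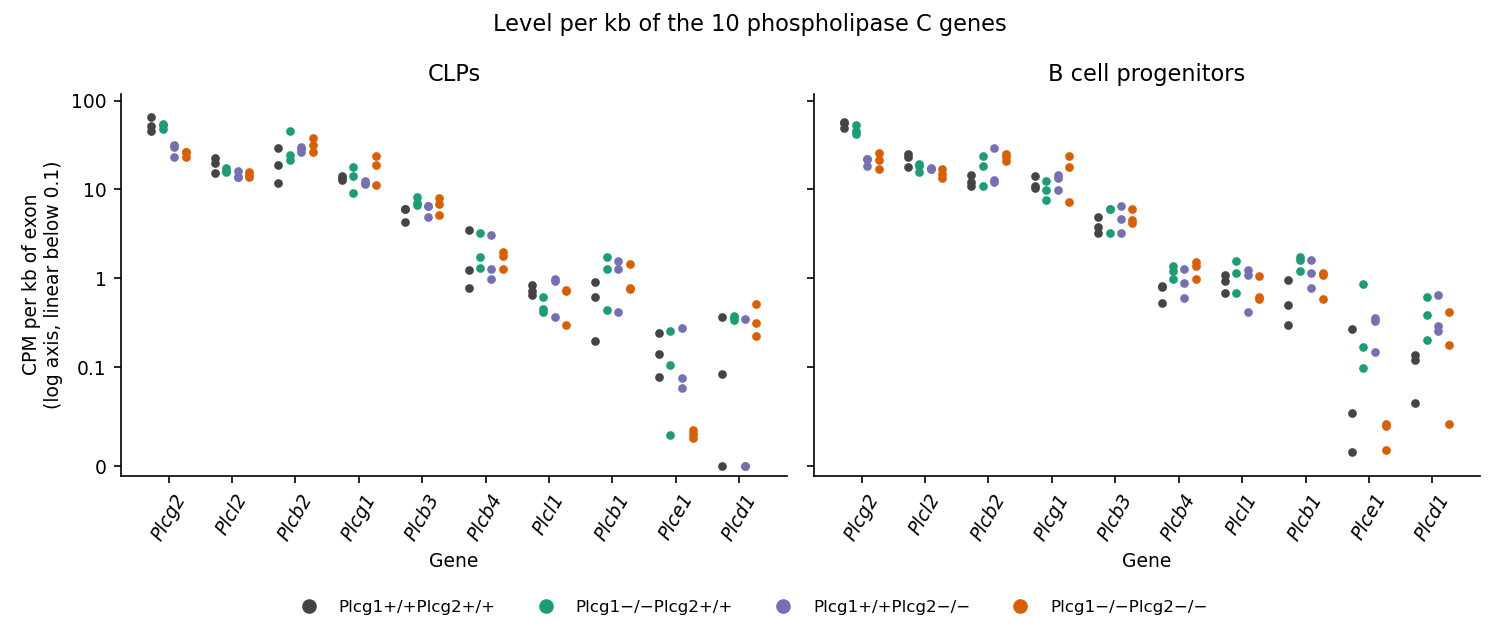
Level of each gene in CPM per kb of exon (vertical log axis, linear below 0.1) for CLPs and B cell progenitors; each point is 1 library and the colours are the 4 genotypes. Plcg2 was highest in the wild-type groups, at a mean of 54.3 CPM per kb in each population, and Plce1 and Plcd1 were lowest.

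The targeted genes were examined in every library before the other members. Plcg2 fell with the Plcg2 deletion and remained detectable, whereas no lower Plcg1 read count was detected in the libraries labelled Plcg1-/-. In CLPs the normalised read count of Plcg2 was 196, 280 and 220 CPM in the wild-type libraries and 202, 226 and 233 CPM in the Plcg1-/-Plcg2+/+ libraries. It was 127, 101 and 137 CPM in the Plcg1+/+Plcg2-/- libraries and 114, 95.1 and 115 CPM in the Plcg1-/-Plcg2-/- libraries. All 6 libraries labelled Plcg2-/- thus lay below all 6 labelled Plcg2+/+. The fold change in Plcg1-/-Plcg2-/- CLPs against wild-type was 0.466 (95% interval 0.364 to 0.598, log2 fold change -1.10 ± 0.16 SE, adjusted p = 0.0375 by edgeR's quasi-likelihood test). In Plcg1+/+Plcg2-/- CLPs it was 0.525 (95% interval 0.410 to 0.672, log2 fold change -0.93 ± 0.16 SE) with an adjusted p of 0.368, which missed the threshold, and DESeq2 gave 0.00209. The average effect of the Plcg2 deletion over both Plcg1 genotypes was a log2 fold change of -0.98 ± 0.12 SE in CLPs (adjusted p = 0.036 by edgeR). These CLP calls were close to the threshold. Leaving out any 1 of the 6 compared libraries other than wild-type replicate 1 ended the double-deficient call, and the highest adjusted p was then 0.251 with log2 fold changes between -1.23 and -0.92 over all 6. The average effect missed the threshold without any 1 of the 12 CLP libraries other than wild-type replicates 1 and 3 (adjusted p up to 0.166). Leaving out the 4 libraries highest in Flt3 gave -1.14 with an adjusted p of 0.0583, and -0.94 with an adjusted p of 0.136 for the average effect.

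Plcg2 in B cell progenitors was at 215, 243 and 246 CPM in the wild-type libraries and 184, 201 and 233 CPM in the Plcg1-/-Plcg2+/+ libraries. It was at 94.9, 96.5 and 79.6 CPM in the Plcg1+/+Plcg2-/- libraries and 72.7, 91.2 and 112 CPM in the Plcg1-/-Plcg2-/- libraries. Again the highest library labelled Plcg2-/- was below the lowest labelled Plcg2+/+. The fold change against wild-type was 0.387 (95% interval 0.302 to 0.497, adjusted p = 0.0187 by edgeR) in Plcg1+/+Plcg2-/- cells and 0.393 (95% interval 0.307 to 0.503, adjusted p = 0.0025) in Plcg1-/-Plcg2-/- cells. The average effect of the Plcg2 deletion was a log2 fold change of -1.27 ± 0.12 SE (adjusted p = 0.0019). The double-deficient and average calls held in all leave-one-out fits. The call in Plcg1+/+Plcg2-/- cells held only without Plcg1+/+Plcg2-/- replicate 2, and otherwise the adjusted p rose to as much as 0.142. The double-deficient effect on Plcg2 differed between the populations by -0.25 on the log2 scale (95% interval -0.73 to 0.22, adjusted p = 1.00), so that a difference was not shown.

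Plcg1 in CLPs was at 107, 112 and 100 CPM in wild-type, 70.4, 136 and 111 CPM in Plcg1-/-Plcg2+/+, 89.6, 96.9 and 93.6 CPM in Plcg1+/+Plcg2-/- and 87.3, 144 and 185 CPM in Plcg1-/-Plcg2-/- libraries. In B cell progenitors the same groups had 113, 86.5 and 80.7 CPM, then 60.8, 80.2 and 99.3 CPM, then 78.0, 115 and 108 CPM, then 56.5, 184 and 140 CPM. The libraries labelled Plcg1-/- overlapped the wild-type libraries in both populations. The double-deficient libraries had the widest spread, with an SD of 49.1 CPM in Plcg1-/-Plcg2-/- CLPs and 64.6 CPM in Plcg1-/-Plcg2-/- B cell progenitors against 5.9 and 17.1 CPM in wild-type. The fold change in Plcg1-/-Plcg2+/+ cells was 0.999 (95% interval 0.669 to 1.49) in CLPs and 0.859 (95% interval 0.516 to 1.43) in B cell progenitors, and in Plcg1-/-Plcg2-/- cells it was 1.31 (95% interval 0.876 to 1.95) and 1.37 (95% interval 0.825 to 2.28). None of these passed the test by edgeR (adjusted p between 0.594 and 1.00). Without the 4 CLP libraries highest in Flt3 the log2 fold changes in CLPs were -0.25 and 0.35 (adjusted p = 0.850 and 0.735). The counts are sums over all exons of the gene, and the floxed exons are not given in the sources used here, so the gene total does not check the deletion. By western blot, the study found neither PLCγ protein in YFP+ bone marrow cells of recipients of Plcg1-/-Plcg2-/- marrow. Read counts of Plcg1 and Plcg2 do not measure their proteins.

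**Figure D2:**
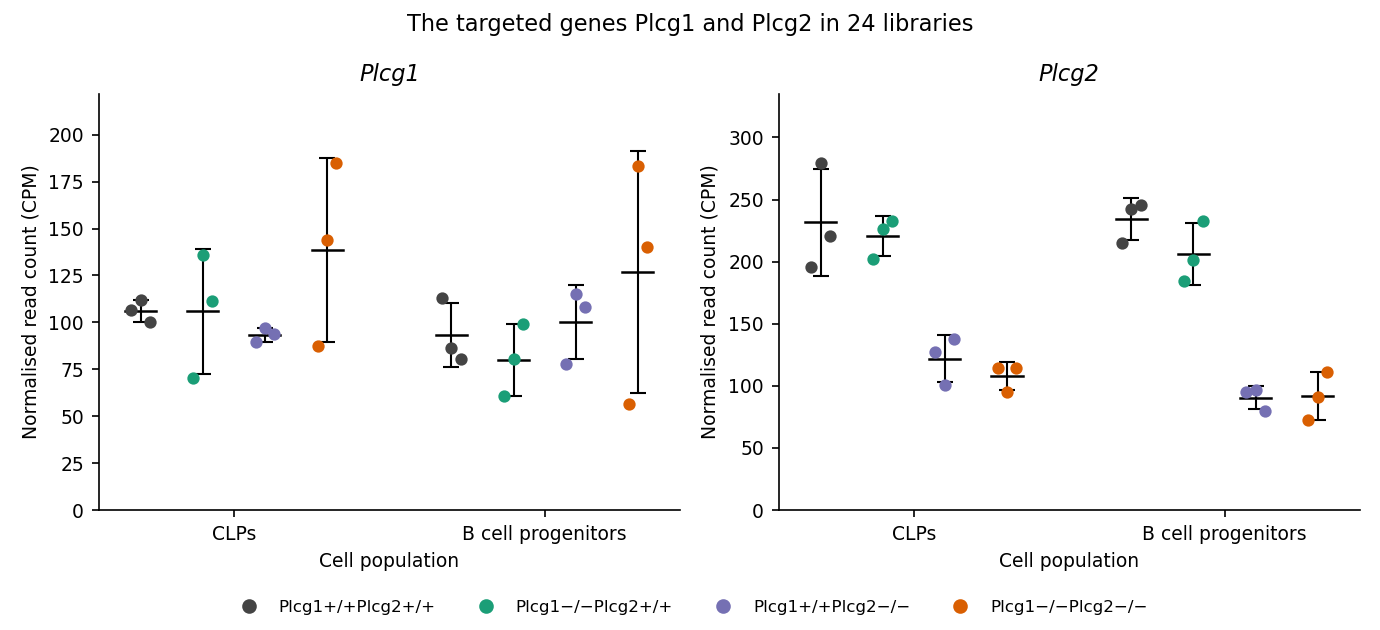
Normalised read counts (CPM) of Plcg1 (left) and Plcg2 (right) in CLPs and B cell progenitors; each point is 1 library, horizontal lines are means and bars the SD of 3 libraries. Plcg2 was at 72.7 to 137 CPM in the 12 libraries labelled Plcg2-/- and at 184 to 280 CPM in the other 12, while Plcg1 overlapped with wild-type in each group except Plcg1+/+Plcg2-/- CLPs, which lay below the wild-type CLPs.

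Since fewer cells of a type and less RNA per cell cannot be told apart in bulk libraries, the untargeted members are described as levels in the sorted populations. Against wild-type, no untargeted member passed the test in any genotype of either population (0 of 48 tests by edgeR). At an unadjusted p of at most 0.05 there were 10 of 48, beside 2.84% to 12.3% of all genes in the 6 comparisons. DESeq2 called 1, in double-deficient B cell progenitors, where it called 444 of 15001 genes. Of the 48 estimates 32 were above wild-type, from groups that share the wild-type libraries. Of all genes tested, edgeR called 0.00658% in Plcg1-/-Plcg2+/+, 0% in Plcg1+/+Plcg2-/- and 0.0921% in Plcg1-/-Plcg2-/- CLPs. For the 0%, 596 of 15209 genes lay at or under 0.05 before adjustment, and DESeq2 called 11. For B cell progenitors edgeR called 0.06%, 0.0467% and 0.893% of 15001 genes. For the average effects of Plcg1 loss and of Plcg2 loss it called 0.0329% and 0.0132% in CLPs and 0.0867% and 0.167% in B cell progenitors, and no untargeted member was among them. The 8 untargeted members had a median log2 fold change of 0.27 in Plcg1-/-Plcg2+/+, -0.02 in Plcg1+/+Plcg2-/- and 0.04 in Plcg1-/-Plcg2-/- CLPs, and of 0.63, 0.46 and 0.46 in B cell progenitors, beside medians over all genes between -0.03 and 0.06.

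**Figure D3:**
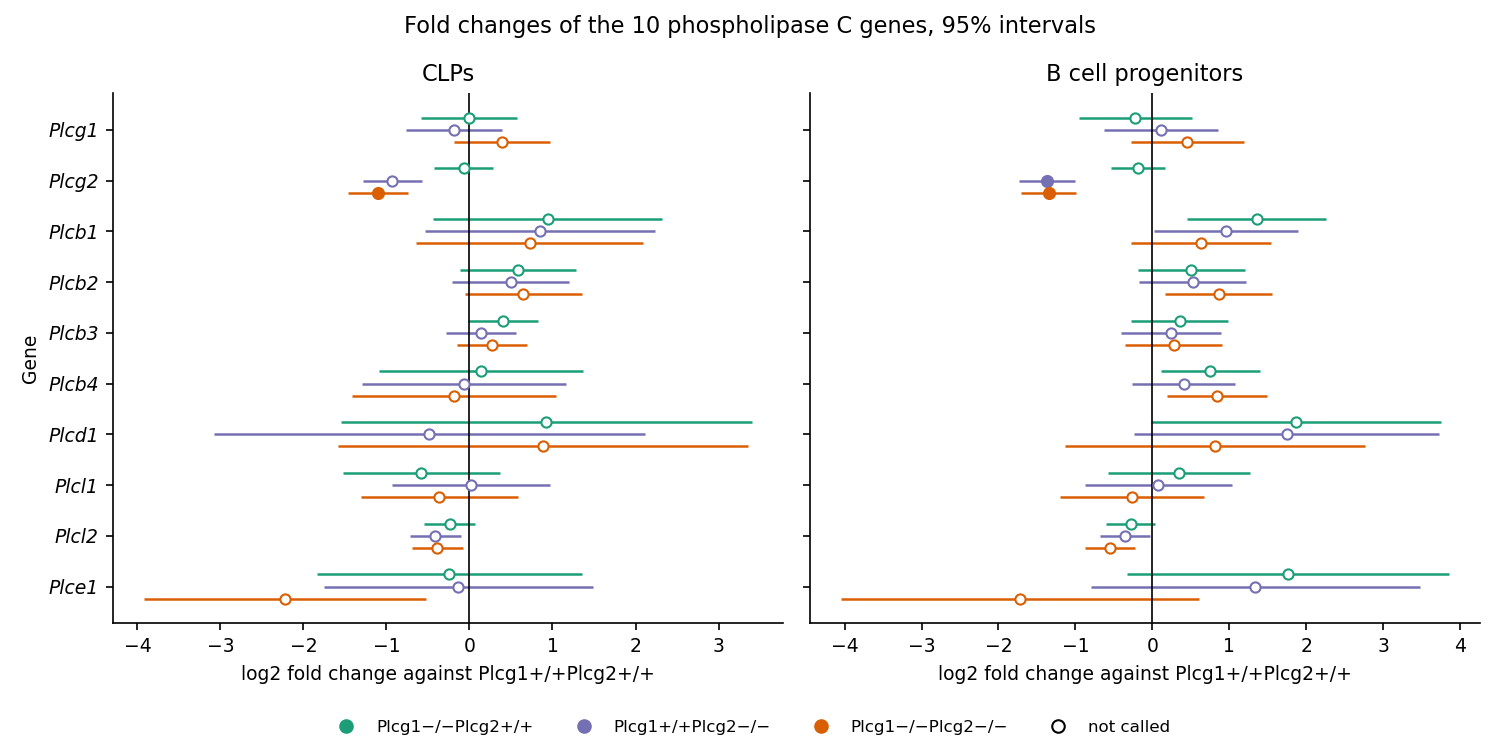
log2 fold change of each PLC gene against wild-type with its 95% interval, in CLPs and B cell progenitors, coloured by genotype; filled points passed the threshold (adjusted p of at most 0.05 and at least 0.5 on the log2 scale) and open points did not. The filled points are those of Plcg2, and no untargeted gene is filled.

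Among the β enzymes, Plcb2, the isoform known from blood cells, had the highest untargeted level in double-deficient cells. Among the B cell progenitors it was at 81.9, 72.1 and 96.3 CPM in wild-type, 157, 74.4 and 124 CPM in Plcg1-/-Plcg2+/+, 193, 85.8 and 81.7 CPM in Plcg1+/+Plcg2-/- and 154, 164 and 138 CPM in Plcg1-/-Plcg2-/- libraries. The 3 double-deficient libraries were all above the wild-type libraries, and the single-deficient groups overlapped with wild-type. The double-deficient fold change was 1.82 (95% interval 1.12 to 2.95, log2 fold change 0.87 ± 0.32 SE, adjusted p = 0.297 by edgeR). With the 6 compared libraries fitted alone it was 0.86 with an adjusted p of 0.0256, which passed, and that fit called 238 of 12749 genes against 134 of 15001. In CLPs Plcb2 was at 192, 78.3 and 123 CPM in wild-type and 206, 240 and 174 CPM in Plcg1-/-Plcg2-/- libraries, which overlapped, with a fold change of 1.57 (95% interval 0.966 to 2.55, adjusted p = 0.681). Without the 4 libraries highest in Flt3 the log2 fold change was 0.90 (adjusted p = 0.200) against 0.65 with them. Wild-type CLP replicate 1, one of the 4 libraries highest in Flt3, was also the highest of its group in Plcb2. The 8 myeloid markers fixed for the check summed to 1406, 2113 and 4520 CPM in wild-type and to 6767, 2641 and 5352 CPM in Plcg1-/-Plcg2-/- B cell progenitors, ranges that overlap, and their part in the Plcb2 level was not tested.

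Plcb1, Plcb3 and Plcb4 were measured at lower levels. Plcb1 in B cell progenitors was at 5.7, 3.3 and 10.7 CPM in wild-type and at 18.1, 13.7 and 19.4 CPM in Plcg1-/-Plcg2+/+ libraries. Those groups did not overlap, and the fold change was 2.57 (95% interval 1.37 to 4.79, adjusted p = 0.467). The myeloid markers summed to 1406, 2113 and 4520 CPM in those wild-type libraries and to 7634, 2249 and 4974 CPM in those Plcg1-/-Plcg2+/+ libraries. These ranges overlap, and the part of myeloid cells in the Plcb1 level was not tested. Plcb4 in B cell progenitors was at 7.2, 4.7 and 7.3 CPM in wild-type and 13.9, 8.7 and 12.5 CPM in Plcg1-/-Plcg2-/- libraries, a fold change of 1.79 (95% interval 1.14 to 2.81, adjusted p = 0.274). In double-deficient CLPs the Plcb4 estimate was below wild-type, at a fold change of 0.880 (95% interval 0.376 to 2.06, 14.8 ± 3.0 against 16.6 ± 13.2 CPM, SD, n = 3), and without the 4 libraries highest in Flt3 its log2 value turned from -0.18 to 0.55 (adjusted p = 0.573). Plcb1 overlapped with wild-type in the double-deficient groups, with fold changes of 1.55 (95% interval 0.827 to 2.92) in B cell progenitors and 1.65 (95% interval 0.639 to 4.27) in CLPs. Plcb3, a broadly expressed β enzyme, had fold changes of 1.10 to 1.33 in the 3 deficient genotypes among CLPs and of 1.18 to 1.28 among B cell progenitors, all with intervals that included 1. The adjusted p-values of these genes came from edgeR's quasi-likelihood test, and none passed.

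Plcl2, a catalytically inactive PLC-like protein known to dampen B cell receptor signalling, was the untargeted member nearest to the threshold, and its estimates were below wild-type. Its B cell progenitor values were 120, 168 and 152 CPM in wild-type, 106, 132 and 124 CPM in Plcg1-/-Plcg2+/+, 116, 114 and 114 CPM in Plcg1+/+Plcg2-/- and 89.6, 97.1 and 113 CPM in Plcg1-/-Plcg2-/- libraries. The Plcg1+/+Plcg2-/- and Plcg1-/-Plcg2-/- libraries were all below the wild-type libraries, and the Plcg1-/-Plcg2+/+ libraries overlapped with them. The double-deficient fold change was 0.683 (95% interval 0.547 to 0.853, log2 fold change -0.55 ± 0.15 SE) with an adjusted p of 0.137 by edgeR, and DESeq2 gave 0.0189, which passed. In CLPs Plcl2 was at 102, 148 and 131 CPM in wild-type and 92.3, 93.8 and 105 CPM in Plcg1-/-Plcg2-/- libraries, with overlap, and the fold change was 0.765 (95% interval 0.618 to 0.947, adjusted p = 0.528). Without the 4 libraries highest in Flt3 the log2 value was -0.51 (adjusted p = 0.348). The fold changes of Plcl2 in the other deficient groups lay between 0.753 and 0.848.

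**Figure D4:**
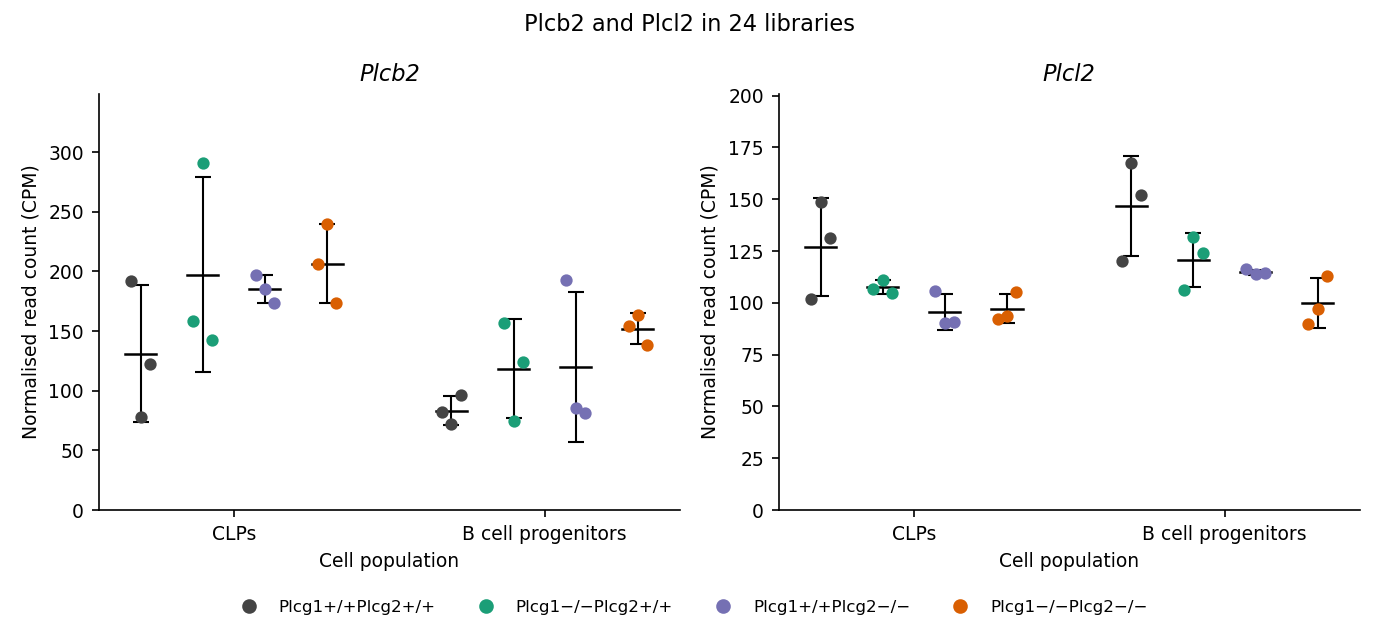
Normalised read counts (CPM) of Plcb2 (left) and Plcl2 (right) by population and genotype; each point is 1 library, horizontal lines are means and bars the SD of 3 libraries. In B cell progenitors the Plcg1-/-Plcg2-/- libraries were above wild-type in Plcb2 (138 to 164 against 72.1 to 96.3 CPM) and below it in Plcl2 (89.6 to 113 against 120 to 168 CPM), and neither passed edgeR's test.

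Plcl1, Plcd1 and Plce1 were too low to limit a change tightly. The 95% interval of the fold change in Plcg1-/-Plcg2-/- cells ran from 0.406 to 1.49 for Plcl1 in CLPs and from 0.436 to 1.60 in B cell progenitors. For Plcd1 it ran from 0.334 to 10.2 and from 0.453 to 6.77. Plce1 was at 1.4, 3.9 and 2.3 CPM in wild-type and 0.5, 0.4 and 0.6 CPM in Plcg1-/-Plcg2-/- CLPs, which did not overlap (fold change 0.214, 95% interval 0.0659 to 0.697, adjusted p = 0.497 by edgeR), from 5 to 75 reads a library, and the log2 value was -2.42 (adjusted p = 0.339) without the 4 libraries highest in Flt3. In B cell progenitors the highest Plce1 values were 14 CPM in Plcg1-/-Plcg2+/+ replicate 2 and 5.8 CPM in Plcg1+/+Plcg2-/- replicate 2. Those libraries had the highest shares of no feature reads (87.3% and 75.8%), and the part of those reads in the values was not tested.

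Members whose 3 libraries did not overlap with the 3 wild-type libraries were 2 of 10 in each deficient genotype of CLPs (beside 6.34%, 7.78% and 13.6% of all genes tested in Plcg1-/-Plcg2+/+, Plcg1+/+Plcg2-/- and Plcg1-/-Plcg2-/- cells). They were 3, 3 and 4 of 10 in B cell progenitors, beside 18.5%, 8.63% and 19.7% of all genes. Plcg2 was among them in the 4 comparisons of its own deletion.

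The summed level of the family was lower in the groups with the Plcg2 deletion, and the sum of the untargeted members overlapped with wild-type in each group except Plcg1-/-Plcg2-/- B cell progenitors (45.6 to 46.7 against 36.1 to 45.3 CPM per kb). With the longest transcript as length that group overlapped too (63.7 to 64.6 against 51.1 to 64.6 CPM per kb). Over the 10 genes it was 116.0 ± 4.2 CPM per kb in wild-type CLPs and 100.2 ± 4.9 in Plcg1-/-Plcg2-/- CLPs, and 107.3 ± 7.1 and 83.7 ± 11.7 CPM per kb in B cell progenitors (SD, n = 3). The 8 untargeted genes summed to 48.2 ± 7.4 and 56.9 ± 6.4 CPM per kb in those CLPs and to 41.1 ± 4.7 and 46.2 ± 0.6 CPM per kb in those B cell progenitors. These 8 include Plcl1 and Plcl2, which lack catalytic activity, and the untargeted enzymes were not summed without them. In those B cell progenitors the mean of Plcl2 was 22.1 and 15.05 CPM per kb, and that of Plcb2 was 12.6 and 23.01 CPM per kb. Plcb1, Plcb3, Plcb4 and Plcd1 also had higher means in the Plcg1-/-Plcg2-/- group, and Plcl1 and Plce1 had lower ones. The share of Plcb2 in the family sum was 17.3 ± 7.8% in wild-type and 31.7 ± 5.0% in Plcg1-/-Plcg2-/- CLPs, and 11.8 ± 1.6% and 27.9 ± 4.8% in B cell progenitors. The lower Plcg2 level is part of the denominator of that share. The sums and shares were not tested.

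Between the populations, the 10 genes were compared in 1 fit over the 24 libraries. No member passed in wild-type cells alone, where edgeR called 3.5% of 17212 genes. There 2 members had an estimate above CLPs among the untargeted genes, and the unadjusted p of 1 was 0.05 or less. Plcb4 was at 31.6, 7.1 and 11.2 CPM in wild-type CLPs and 7.1, 4.7 and 7.4 CPM in wild-type B cell progenitors (log2 fold change -1.39 ± 0.48 SE, adjusted p = 0.129). Averaged over the 4 genotypes, where edgeR called 14.4% of the genes, Plcb2 was lower in B cell progenitors by a fold change of 0.642 (95% interval 0.50 to 0.824, adjusted p = 0.0086) and Plcb4 by 0.543 (95% interval 0.384 to 0.768, adjusted p = 0.0092). Plcb3 had an adjusted p of 0.0143 at a log2 fold change of -0.45, under the minimum of 0.5. Plcg1 and Plcg2 had fold changes of 0.886 (95% interval 0.702 to 1.12) and 0.866 (95% interval 0.770 to 0.974) and did not pass. With the mouse, which gave both libraries, as a block, Plcl1 also passed, higher in B cell progenitors by 0.51 on the log2 scale (adjusted p = 0.0148 by edgeR against 0.0687 without the block). The double-deficient effect differed between the populations for no member and for 0% of all genes (edgeR; 235 of 17212 genes at an unadjusted p of at most 0.05, and 0 called by DESeq2).

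The Plcb2 and Plcb4 calls rested on the 4 CLP libraries highest in Flt3. Plcb4 was at 17.6 to 31.6 CPM in those 4, at 7.07 to 16.2 CPM in the other 8 CLP libraries and at 4.73 to 13.8 CPM in the 12 B cell progenitor libraries. Plcb2 was at 186 to 300 CPM, 79.0 to 207 CPM and 72.0 to 191 CPM in the same sets. Without those 4 libraries the log2 fold changes were -0.40 for Plcb4 and -0.44 for Plcb2 (adjusted p = 0.124 and 0.113 by edgeR), and no member was called, while calls over all genes went from 2476 of 17212 to 1137 of 18214. With those 4 as the only CLP libraries, they were -1.53 and -1.0 (adjusted p = 4.1e-05 and 0.00384). Over the 24 libraries, the genes with the highest Pearson correlation of log2 CPM with Plcb4 among 17212 were Cd27 (r = 0.955), Adam11 (0.935) and Tns1 (0.930). Those most like Plcg2 were Ephx1 (r = 0.875), Amigo1 (0.865) and C130046K22Rik (0.842). The 24 libraries share genotypes, mice and depth, so these are descriptions of likeness.

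**Figure D5:**
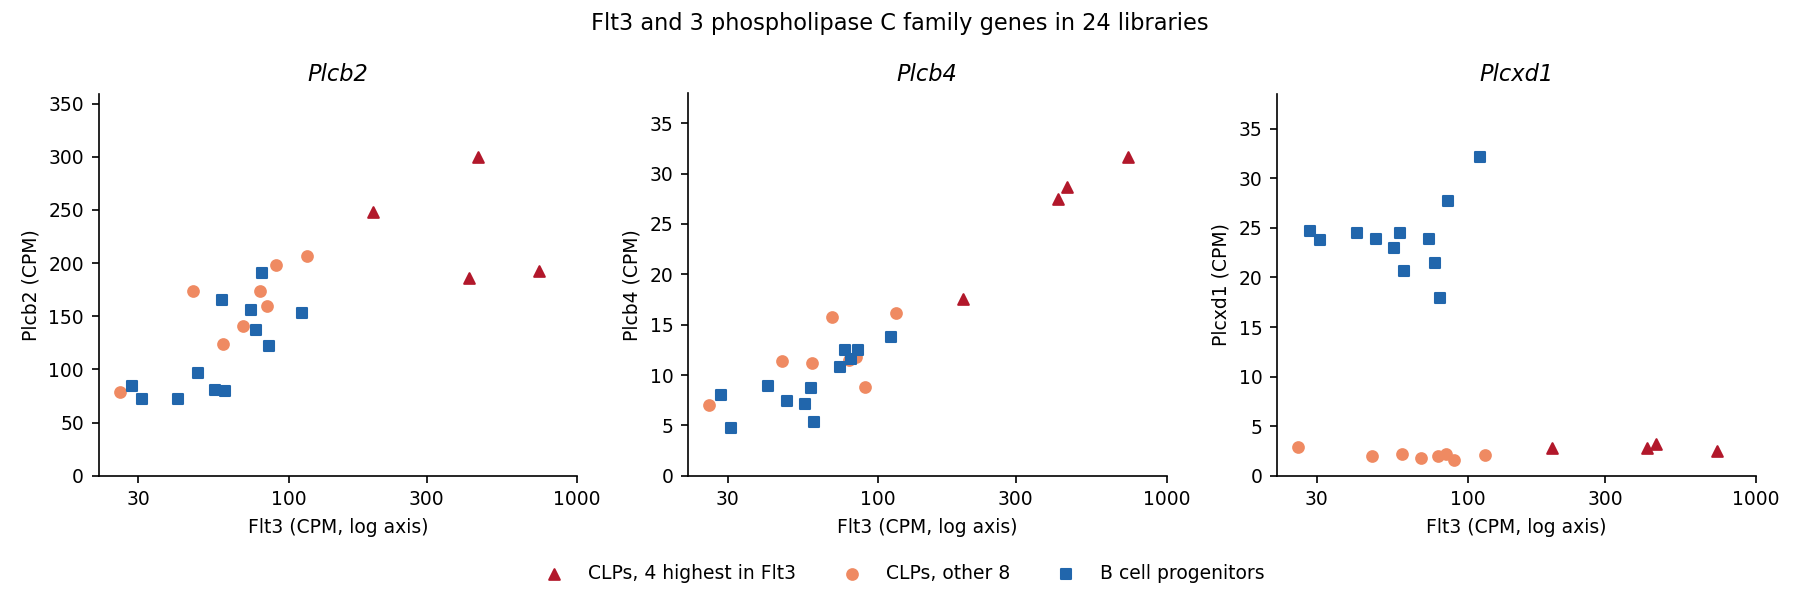
Plcb2, Plcb4 and Plcxd1 (CPM) against Flt3 (CPM, log axis) in 24 libraries; triangles are the 4 CLP libraries highest in Flt3, circles the other 8 CLP libraries and squares the 12 B cell progenitor libraries. Plcb4 was at 17.6 to 31.6 CPM in the triangles and at most 16.2 CPM elsewhere, whereas Plcxd1 separated all CLPs (1.55 to 3.17 CPM) from all B cell progenitors (17.9 to 32.1 CPM).

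The 8 other genes of the PLC family and its X-domain relatives (Plcd3, Plcd4, Plch1, Plch2, Plcz1 and Plcxd1 to Plcxd3) were mostly low, with means of at most 2.10 CPM per kb apart from Plcxd1, and none was called in any genotype comparison, where 6 passed the filter on low counts in CLPs and 4 in B cell progenitors. Plcxd1 encodes a small protein with the PLC X domain. It had 31 to 570 reads a library in B cell progenitors and 9 to 72 in CLPs, at 23.4, 23.8 and 23.7 CPM against 2.5, 2.9 and 2.2 CPM in the wild-type libraries. The 2 populations did not overlap, and the log2 fold change in wild-type was 3.26 ± 0.26 SE (adjusted p = 2.4e-08 by edgeR). The 8 CLP libraries with Flt3 levels near those of B cell progenitors stayed at 1.55 to 2.92 CPM. Plcxd1 shares 29.3% of its exon bases with Gtpbp6 on the opposite strand. Gtpbp6 was at 13.4 to 21.2 CPM in CLPs and 32.0 to 46.8 CPM in B cell progenitors. The shares of no feature and ambiguous reads also differed between the populations without overlap. Their part and that of the opposite strand in the Plcxd1 difference cannot be told apart from the population. Plcd4 was called higher in B cell progenitors on average (log2 fold change 1.22, adjusted p = 0.0477) from at most 89 reads a library. Plcd4 shares 29.8% of its exon bases with Zfp142 on the opposite strand. Its highest values (8.97, 6.13 and 4.79 CPM) were in the 3 libraries with the highest shares of no feature reads. The part of these reads and of the opposite strand was not tested.

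Genes of the PLC pathway were listed by their place in it, with the results of earlier work on these data known. The list of PLCγ activators and adaptors held 21 genes, which were kinases and adaptors together with the Vav genes, Cbl and Cblb. Of these, 1 was called in Plcg1-/-Plcg2-/- cells of each population, and it was lower. This was Blk, a Src family kinase of the B lineage. Blk was at 98.3, 272 and 130 CPM in wild-type and 31.7, 30.4 and 18.1 CPM in Plcg1-/-Plcg2-/- CLPs (log2 fold change -2.63 ± 0.35 SE, adjusted p = 0.0257 by edgeR). In B cell progenitors it was at 205, 217 and 187 CPM in wild-type and 24.5, 36.3 and 38.4 CPM in Plcg1-/-Plcg2-/- libraries (-2.60 ± 0.29 SE, adjusted p = 0.00139), and the average effect of Plcg2 loss on it there was -1.66 (adjusted p = 0.00727). The double-deficient libraries were below all wild-type libraries in both populations. In B cell progenitors so were the Plcg1-/-Plcg2+/+ (118, 160 and 118 CPM) and Plcg1+/+Plcg2-/- libraries (72.4, 117 and 45.6 CPM). In CLPs the Plcg1+/+Plcg2-/- libraries (86.5, 85.3 and 82.8 CPM) were also below wild-type, and the Plcg1-/-Plcg2+/+ libraries overlapped with it. Blk was not called in a single-deficient genotype.

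Of the 21 genes of the DAG branch, Rasgrp1, a DAG-activated exchange factor for Ras, was called lower in Plcg1-/-Plcg2-/- cells. It was at 59.2, 46.9 and 45.8 CPM in wild-type and 20.3, 19.5 and 10.3 CPM in Plcg1-/-Plcg2-/- CLPs (log2 fold change -1.60, adjusted p = 0.0375 by edgeR), and at 83.6, 50.6 and 68.7 CPM against 16.5, 2.9 and 14.9 CPM in B cell progenitors (-2.67, adjusted p = 0.0271). None of the 12 genes of the IP3 branch or the 15 genes of substrate supply was called in a genotype comparison. The list medians in Plcg1-/-Plcg2-/- B cell progenitors were -0.15 for the DAG branch, -0.04 for the IP3 branch and -0.02 for substrate supply, beside -0.02 over all genes.

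Of the 4 Gq family α subunits, which activate the β enzymes, Gna15 was called higher and Gna11 lower in Plcg1-/-Plcg2-/- B cell progenitors. Gna15, the subunit typical of blood cells, was at 23.6, 33.6 and 37.9 CPM in wild-type and 80.0, 66.7 and 66.7 CPM in Plcg1-/-Plcg2-/- libraries (log2 fold change 1.16 ± 0.22 SE, adjusted p = 0.029 by edgeR). Gna11 was at 54.1, 59.2 and 59.3 CPM and 33.4, 33.2 and 31.3 CPM in the same groups (-0.82 ± 0.12 SE, adjusted p = 0.00791). Neither gene's groups overlapped. In Gna11 the Plcg1-/-Plcg2+/+ (45.3, 43.6 and 39.8 CPM) and Plcg1+/+Plcg2-/- libraries (44.2, 37.8 and 41.5 CPM) were also below wild-type, and neither group was called. In Gna15 both single-deficient groups overlapped with wild-type. In CLPs, Gna15 was at 100.3, 41.6 and 43.1 CPM in wild-type and 81.4, 89.8 and 71.0 CPM in Plcg1-/-Plcg2-/- libraries, which overlapped, and none of the 4 was called. Gna15 was also higher in the 4 CLP libraries highest in Flt3 (92.8 to 104 CPM) than in the other 8 (41.9 to 81.6 CPM).

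Between the populations on average, the activators and adaptors had 6 of 21 genes called lower in B cell progenitors and 0 higher, beside 1029 lower and 1447 higher of 17212 genes tested. One of them was Lat2, an adaptor of B and myeloid cells (log2 fold change -1.17, adjusted p = 0.011 by edgeR). It was at 210.3, 32.4 and 61.1 CPM in the wild-type CLPs, where the high library was the one highest in Flt3. Of the DAG branch, Dgki, a diacylglycerol kinase, was called higher (1.34, adjusted p = 0.014). Its highest value, 10.6 CPM, was in B cell progenitors of Plcg1-/-Plcg2+/+ replicate 2, the library with the highest share of no feature reads. Gna15 (-0.68, adjusted p = 0.0037) and Prkcq, a protein kinase C of T cells (-0.72, adjusted p = 0.030), were the only others called of the Gq and DAG lists, both lower, and are named here after their values were seen.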

How the data were processed

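Per the labels and the study's methods, poly(A) RNA was sequenced on an Illumina NextSeq and aligned by the authors with STAR 2.5.0a to mm10 with RefSeq genes. The deposited values are raw read counts per gene, and the 2 rows that name no gene (no feature, ambiguous) entered neither library sizes nor tests. The counting program and its strand setting are not given in the sources used here. The PLC genes, gene lists and tests were chosen with earlier results of these data known. Counts were fitted with edgeR 4.0.16 (TMM factors, filterByExpr, glmQLFit, glmQLFTest, R 4.3.3), per population over 4 genotypes (15209 and 15001 genes) and over 24 libraries for the populations (17212 genes), as the study's methods state no block. A gene was called at an adjusted p of at most 0.05 (Benjamini-Hochberg over all genes) and a log2 fold change of 0.5 or more in size. All 10 members passed the filter in each fit. The fits were tested on simulated data. CPM used TMM-scaled library totals, within a population for genotypes. They were taken over 24 libraries for populations, levels per kb, marker genes and the sets split by Flt3. A count of 3 reads equals 0.0903 to 2.03 CPM. Lengths and positions are from GENCODE M21, promoters from RefSeq (GRCm38.p6). Named pathway genes were those called, up to 5 per comparison by size of change. Some genes that this rule names are not reported here. The mouse number in the labels pairs the populations: deviations from group means of the 2 libraries of a mouse correlated from -0.35 to 0.53. Alternatives were DESeq2 1.42.0, RLE factors, no filter, thinned counts, blocks, the compared groups alone, each library left out and, added after seeing the data, CLP libraries left out by Flt3.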

Additional observations from a re-analysis of the deposited data

How the results depend on the processing

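Of 464 alternative values for the 27 member fold changes with an unadjusted p of at most 0.05, 0 changed direction, while 38 of the other 103 changed sign under some alternative. The 27 were picked by that p in libraries that the alternatives refit in whole or in part. Changes of direction were therefore unlikely from the start. The number of members called was 191 times of 223 within 1.5 times the reported number. DESeq2 called 1 member in place of 0 in Plcg1+/+Plcg2-/- CLPs (Plcg2) and 2 in place of 1 in Plcg1-/-Plcg2-/- B cell progenitors (Plcl2 added). With the compared groups alone, the double-deficient CLPs and the Plcg1+/+Plcg2-/- B cell progenitors had 0 and the double-deficient B cell progenitors 2 (Plcb2 added). With the replicate number as a block, 0 were called for the average Plcg2 effect in CLPs (edgeR adjusted p = 0.0503) and 2 in Plcg1-/-Plcg2-/- B cell progenitors (Plcl2, 0.0342). Deviations from group means of wild-type and deficient libraries with the same number correlated from -0.517 to 0.363. Deficient genotypes were not compared with each other in this way. Replicate 2 had the lowest sum of myeloid markers in each deficient genotype of both populations, and a structure shared by replicate number was not tested. Over all genes the block by replicate number moved the calls from 14 to 50 for double-deficient CLPs. It moved them from 134 to 550 for double-deficient B cell progenitors, and DESeq2 called 169 and 444 in these groups. With the mouse as a block, 3 members were called between the populations, and the block changed no other call of a member. Without the 4 CLP libraries highest in Flt3, 0 members were called in Plcg1-/-Plcg2-/- CLPs, for the average Plcg2 effect in CLPs and between the populations on average, and without the other 8, 1 (Plcb4) was called between wild-type populations, where 1 CLP library (replicate 1, highest in Plcb4 and Flt3) was left and is assumed to vary like the other groups. With 1 library left out at a time, the number called ranged from 0 to 1 in Plcg1-/-Plcg2-/- CLPs, for the average Plcg2 effect in CLPs and in Plcg1+/+Plcg2-/- B cell progenitors, and from 2 to 4 between the populations on average, where it was 4 without Plcg1+/+Plcg2-/- B cell progenitor replicate 1, the addition being Plcb3 and Plcl1. The causes were not tested. Depth limits the low members, among them Plcd1 and Plce1.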
